A study of Homo sapiens with 12 samples.

Results

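NRF2, encoded by NFE2L2, is the transcription factor that drives the antioxidant programme of epithelial cells. In unstressed cells the adaptor KEAP1 hands NRF2 protein to a ubiquitin ligase built on CUL3, and oxidants or electrophiles that modify KEAP1 let NRF2 accumulate, pair with a small MAF protein and bind antioxidant response elements. Its activity is therefore set largely at the protein level, which RNA counts do not show. Its best known targets make glutathione, keep thioredoxin reduced, supply NADPH and break down heme, and in the airway they are known for their part in the defence against inhaled oxidants.

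The set comprised 9 genes picked by symbol from the 50868 genes of the table: the regulator NFE2L2, its inhibitor KEAP1, and the targets HMOX1, GCLC, GCLM, TXNRD1, SRXN1, PGD and TXN. All 9 were among the 16554 genes with enough counts to be tested. RNA-seq counts came from RPMI2650, an established human nasal epithelial cancer line with a wild type genotype label, cultured at an air-liquid interface, in 12 libraries. The groups were 4 libraries exposed to 1 µM PFHxA (perfluorohexanoic acid) for 7 days, 4 exposed to 1 µM PFBA (perfluorobutanoic acid) for 7 days, and 4 labelled control, for which no vehicle or time is given. They belong to the perfluoroalkyl carboxylic acids and differ in the length of the carbon chain, which is longer in PFHxA. Nothing in the labels says that the 4 libraries of a group came from separate cultures, so p-values measure the spread between these libraries, which may be technical. Libraries are named by the letters a to d of the table's columns.

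Total counts ran from 18051645 to 20405688 with PFHxA, from 18411985 to 21879105 with PFBA and from 16941599 to 21508681 in control. Mitochondrial genes took 11.7 to 12.9% of counts with PFHxA, 11.1 to 11.7% with PFBA and 9.15 to 11.9% in control, where control d was the lowest. The slope of gene level over transcript GC content, in log2 units per 10 points, was 0.0706 to 0.104 in the PFHxA libraries, -0.065 to 0.00417 in the PFBA libraries and -0.0661 to -0.0132 in the controls. The slope over transcript length, in log2 units per doubling, was 0.0138 to 0.0251 with PFHxA, -0.0208 to 0.0329 with PFBA and -0.0632 to -0.00899 in control. PFHxA libraries thus stood apart in GC content, and from control also in length. Each fold change below was also computed after removing, library by library, the trend of gene level with GC content and length. Of 8 epithelial markers 7 averaged at least 1 CPM (the count scaled to library size), led by KRT5 at 1920 CPM and KRT19 at 353 CPM, and KRT14 was at 0.495 CPM. Of 7 markers of ciliated or secretory airway cells 3 averaged at least 1 CPM (FOXJ1 at 7.96, MUC5B at 2.00 and MUC5AC at 1.20 CPM), and SCGB1A1 and TUBA4B had 0 counts. Of 6 mesenchymal markers 3 did, with VIM at 676 CPM and PDGFRB at 26.1 CPM, while COL1A2 had 1 count in all libraries together. The leukocyte gene CD68 was at 1.70 CPM, with PTPRC at 6 counts and CD3E at 2 counts in all libraries together. Of 2 endothelial markers 1 averaged at least 1 CPM, CDH5 at 8.64 CPM, and PECAM1 was at 0.563 CPM. The summed mesenchymal markers ran from 655 to 694 CPM with PFHxA, from 652 to 884 CPM with PFBA and from 623 to 884 CPM in control. Summed epithelial markers ran from 2790 to 3000 CPM with PFHxA, 2540 to 2660 CPM with PFBA and 2750 to 2790 CPM in control. All PFBA libraries were thus below all others in this sum.

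The antioxidant response element has the core letters TGACNNNGC. RefSeq promoter windows (250 bases before to 50 after a gene start, GRCh38.p14) were held for 8 of the 9 genes, in 11 windows. Searched on both strands, TGACNNNGC was found in 5 of these 11 windows, belonging to 4 genes, and in 13.3% of the 35116 windows of all genes. The related letters TGAGNNNGC, were found in 4 of the 11 windows and in 18.3% of all, and none of these matches overlapped one to TGACNNNGC. A match is a run of letters and not a bound site. The 250 bases before the RefSeq starts of PGD and TXN are shown because both genes were called in a comparison below. HMOX1 was also called but had no window. RefSeq starts can lie inside the bounds of a gene in the table, as they do here. Both sequences run 5′ to 3′ on the gene's strand, with a match to TGACNNNGC or its reverse complement in capitals.
PGD, chr1:10398814-10399063, plus strand: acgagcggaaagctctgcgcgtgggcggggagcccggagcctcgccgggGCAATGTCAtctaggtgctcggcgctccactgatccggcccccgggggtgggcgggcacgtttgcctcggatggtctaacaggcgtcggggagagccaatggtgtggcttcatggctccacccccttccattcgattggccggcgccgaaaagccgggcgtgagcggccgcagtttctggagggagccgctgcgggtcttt
TXN, chr9:110256508-110256757, minus strand: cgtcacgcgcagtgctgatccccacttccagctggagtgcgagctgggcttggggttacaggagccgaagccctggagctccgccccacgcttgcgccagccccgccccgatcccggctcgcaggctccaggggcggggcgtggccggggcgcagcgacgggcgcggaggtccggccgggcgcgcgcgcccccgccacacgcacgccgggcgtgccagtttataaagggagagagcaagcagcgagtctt
PGD held 1 match, and TXN held none in this window. The matches of the other genes that lie wholly upstream of a start are shown with 10 bases on each side, so that their letters can be compared.
GCLM, chr1:93909446-93909474, minus strand: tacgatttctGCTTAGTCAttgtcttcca
KEAP1, chr19:10502784-10502812, minus strand: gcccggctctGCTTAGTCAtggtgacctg
KEAP1, chr19:10502807-10502835, minus strand: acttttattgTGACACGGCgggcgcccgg
TXNRD1, chr12:104215670-104215698, plus strand: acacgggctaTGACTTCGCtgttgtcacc
TXNRD1, chr12:104286920-104286948, plus strand: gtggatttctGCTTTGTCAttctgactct
GCLM and KEAP1 carried the same 9 letters, GCTTAGTCA. HMOX1 had no window in the table.

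Levels of different genes were set side by side as CPM per kilobase of the longest annotated transcript, which is an approximation where shorter transcripts are made. PGD, the NADPH-producing phosphogluconate dehydrogenase, was the highest at 176.8 CPM per kilobase (range over 12 libraries 166.9 to 193.1). TXN, the small dithiol protein thioredoxin, followed at 122.0 (99.5 to 162.2), and its range did not reach that of PGD. GCLC, the catalytic subunit of the first enzyme of glutathione synthesis, averaged 44.4 CPM per kilobase (38.5 to 51.1). NFE2L2 averaged 22.2 (10.8 to 39.7), and its highest library reached into the range of GCLC. It also overlapped TXNRD1 at 22.1, KEAP1 at 19.6 and SRXN1, the sulfiredoxin that repairs oxidised peroxiredoxins, at 17.98. GCLM, the modifier subunit of the GCLC enzyme, was at 13.0, also within the range of NFE2L2. HMOX1, the inducible heme oxygenase, was the lowest at 4.73 CPM per kilobase (4.10 to 5.73), below the range of every other gene of the set.

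**Figure D1:**
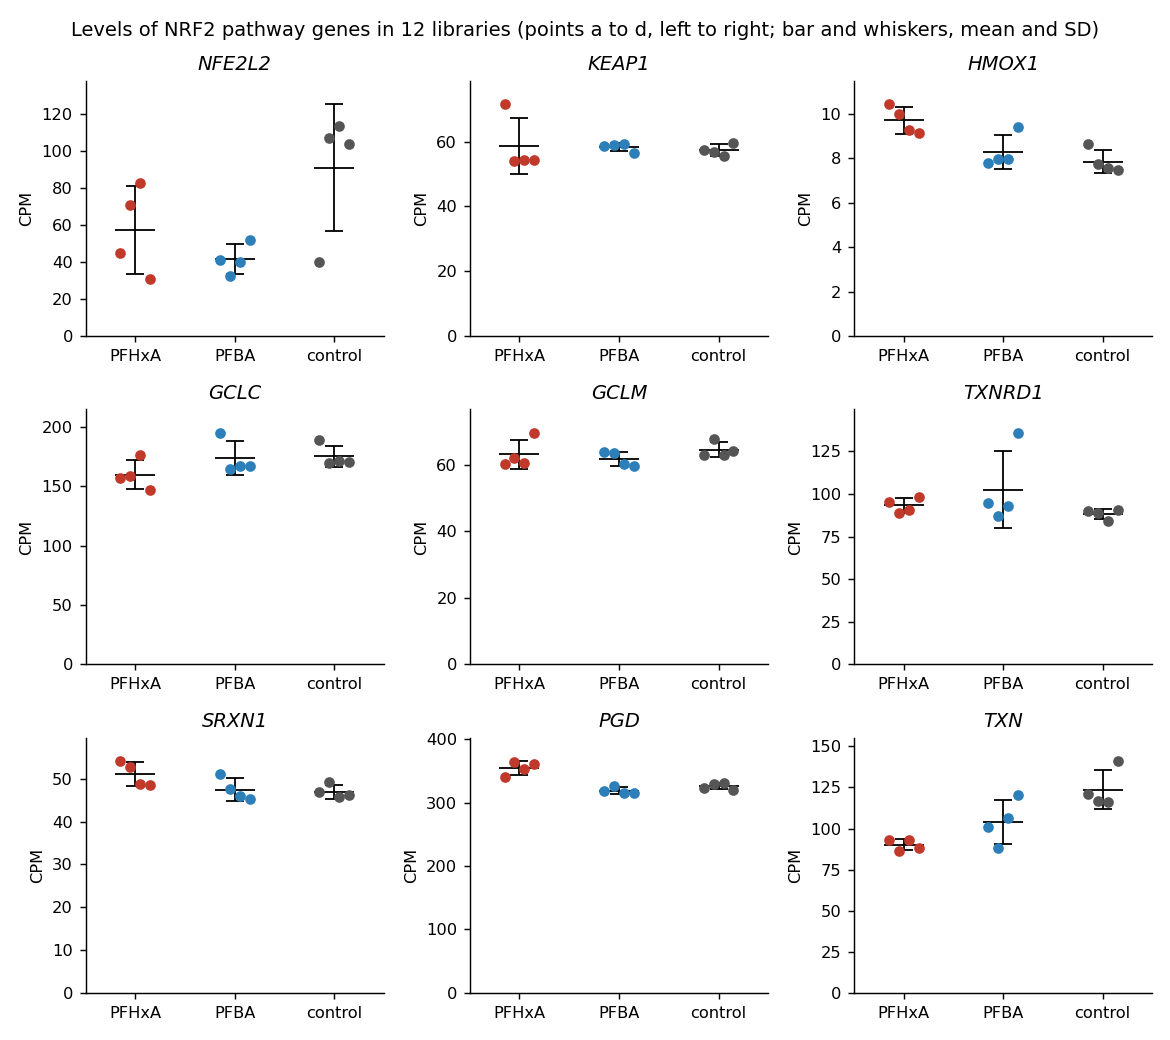
CPM of the 9 genes (vertical axes from 0) in the 4 PFHxA, 4 PFBA and 4 control libraries, points a to d from left to right, with the mean and SD of each group. TXN, HMOX1 and PGD separate PFHxA from control, while NFE2L2 spreads from 30.7 to 113.3 CPM with control a far under the other 3 controls.

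NFE2L2 (chromosome 2, 177227595 to 177392697, minus strand) was the most variable of the 9 genes and was not called in any comparison. It stood at 44.9, 71.0, 82.7 and 30.7 CPM in PFHxA a to d, at 41.2, 32.5, 40.2 and 52.1 CPM in PFBA a to d, and at 39.9, 106.9, 113.3 and 104.0 CPM in control a to d. Controls b, c and d were above all 8 exposed libraries, but control a lay among them, so that each acid overlapped control. The fitted log2 fold change was -0.67 for PFHxA over control (SE 0.377, 95% interval -1.51 to 0.18, edgeR adjusted p = 0.29) and -1.13 for PFBA over control (SE 0.382, interval -1.99 to -0.28, edgeR adjusted p = 0.402). Without control a these became -0.92 (edgeR adjusted p = 0.0911) and -1.38 (edgeR adjusted p = 0.253). PFHxA over PFBA was 0.46 (interval -0.39 to 1.32, edgeR adjusted p = 0.498), and 0.24 without PFHxA c. In bulk RNA, fewer cells that express a gene and less of its RNA per cell cannot be told apart.

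The spread of NFE2L2 within groups was 0.582 on the log2 scale, and 64 of the 4998 tested genes within 1 log2 unit of its level (1.28%) spread more; the median there was 0.0883. Between the lowest and the highest library it changed 2.69-fold with PFHxA, 1.60-fold with PFBA and 2.84-fold in control. Such jumps occurred elsewhere in the table: of 10072 tested genes with a mean of at least 10 CPM, 545 (5.41%) had a 2-fold or larger range within at least 1 group. MAFG, one of the small MAF partners of NRF2, was among them, from 9.75 to 44.3 CPM over the 12 libraries. In control a, KEAP1, SRXN1 and PGD lay within the range of the other controls, and GCLM was the lowest of the controls by a small margin, 62.9 CPM against 63.1 to 67.8 CPM. The same library had the highest GCLC of the controls, 188.8 CPM against 169.6 to 171.0 CPM, and the highest HMOX1, 8.63 CPM against 7.47 to 7.76 CPM.

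The NFE2L2 locus in the table also holds AC019080.1 on the same strand. It had 805 counts over all libraries, 42 to 116 in each, beside 14511 in all for NFE2L2. On the opposite strand AGPS, from 177392644 to 177543836, overlaps NFE2L2 only where both genes start. The whole of AGPS had 19370 counts. How reads shared by such genes were counted, and whether by strand, is not given in the sources used here, and the part of this in the spread was not tested. The genes whose centred log2 CPM came nearest to NFE2L2 over the 12 libraries were ERVK3-1 (root mean square difference 0.399), RUSF1 (0.448) and CDC14C (0.469), with the SD of NFE2L2 itself at 0.691.

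**Figure D2:**
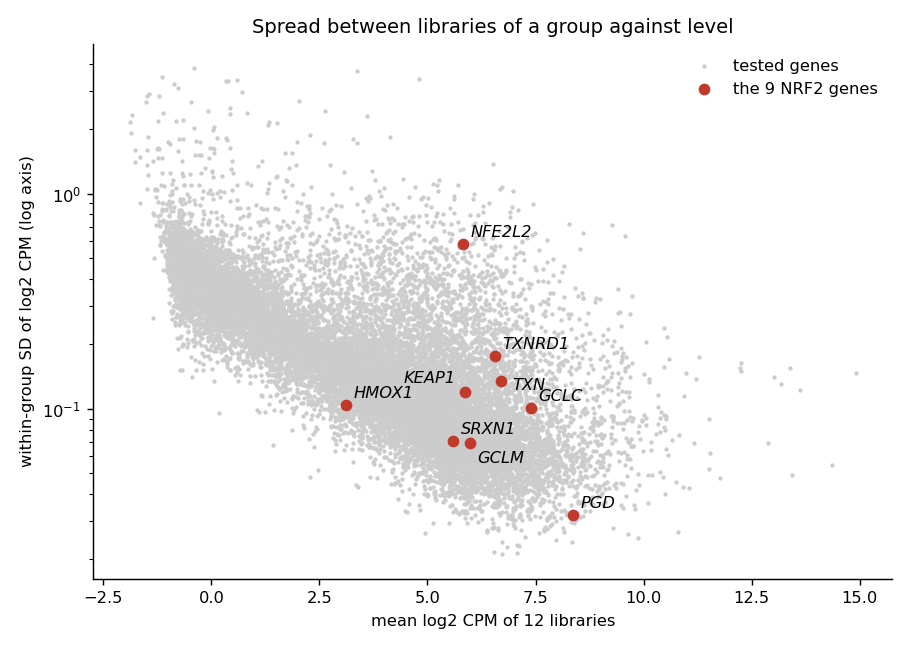
Within-group SD of log2 CPM (log axis) against mean log2 CPM for all tested genes (grey) and the 9 NRF2 genes (red). NFE2L2, at 0.582, lies far above genes of its level, whose median is 0.0883, while PGD, at 0.0319, is among the least variable.

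KEAP1 (chromosome 19, 10486120 to 10503741, minus strand) gave no call in any comparison. It stood at 71.5, 54.1, 54.4 and 54.4 CPM in PFHxA a to d, at 58.5, 59.0, 59.3 and 56.4 CPM in PFBA a to d and at 57.4, 56.9, 55.5 and 59.7 CPM in control a to d. Apart from PFHxA a, the 12 libraries ran from 54.1 to 59.7 CPM. The log2 fold change was 0.03 for PFHxA over control (interval -0.14 to 0.20) and 0.02 for PFBA over control (interval -0.15 to 0.19). Without PFHxA a the first turned to -0.08 (edgeR adjusted p = 0.263).

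With PFHxA against control, TXN fell and HMOX1 and PGD rose, all by modest amounts, and the other 6 genes were not called. These were 3 of 9 genes called, 2 higher and 1 lower, where 14.9% of all tested genes were called, 6.08% higher and 8.82% lower. The median log2 fold change of the 9 was 0.03, against -0.00385 over all tested genes. Of the 3, only TXN kept its call with the GC and length trend removed, where 2.62% of all genes were called.

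TXN (chromosome 9, 110243811 to 110256640, minus strand), the carrier of reducing equivalents from thioredoxin reductase to peroxiredoxins and ribonucleotide reductase, showed the clearest difference. It stood at 93.3, 86.5, 93.0 and 88.1 CPM in PFHxA a to d, at 101.2, 88.2, 106.5 and 120.4 CPM in PFBA a to d, and at 120.8, 116.8, 116.3 and 141.0 CPM in control a to d. All PFHxA libraries were below all controls, a separation in this direction that 11.2% of tested genes showed. TXN averaged 90.2 ± 3.43 CPM with PFHxA and 123.7 ± 11.7 CPM in control (SD, n = 4 each; log2 fold change -0.455, SE 0.0854, edgeR adjusted p = 0.00463). With the trend removed the log2 fold change of TXN, whose longest transcript has 869 bases, was -0.27 (SE 0.0558, edgeR adjusted p = 0.0267). Control d was the highest library, and without it the value was -0.39 (edgeR adjusted p = 0.0115). The nearest patterns over the 12 libraries were those of SF3B6, a splicing factor (root mean square difference 0.057), SNRPE, a spliceosome protein (0.0631), and COX7B, a subunit of cytochrome oxidase (0.0636).

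HMOX1 (chromosome 22, 35380361 to 35394214, plus strand), which degrades heme and is held down by the repressor BACH1 until heme or NRF2 displaces it, was rare but higher. Its raw counts were 191, 189, 166 and 185 in PFHxA a to d, 171, 148, 165 and 191 in PFBA a to d and 185, 153, 140 and 128 in control a to d. Scaled to library size, it stood at 10.4, 9.99, 9.27 and 9.15 CPM with PFHxA, at 7.79, 7.98, 7.95 and 9.41 CPM with PFBA and at 8.63, 7.76, 7.55 and 7.47 CPM in control. All PFHxA libraries exceeded all controls, a separation in this direction that 9.49% of tested genes showed, while PFBA d reached the PFHxA range. HMOX1 averaged 9.71 ± 0.608 CPM with PFHxA and 7.85 ± 0.532 CPM in control (SD, n = 4 each), a 1.23-fold rise (log2 fold change 0.30, SE 0.0886, edgeR adjusted p = 0.0354). The call was lost without PFHxA a, PFHxA b, control b, control c or control d (edgeR adjusted p = 0.07 to 0.0854) and with the trend removed (log2 fold change 0.26, edgeR adjusted p = 0.153). The nearest patterns were those of NKAIN1 (root mean square difference 0.0686), the antisense transcript BNC2-AS1 (0.0734) and HIP1, a clathrin adaptor (0.0758).

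PGD (chromosome 1, 10398592 to 10420144, plus strand), the NADPH-forming enzyme of the pentose phosphate pathway, was the steadiest gene of the set. It stood at 340.0, 364.0, 353.9 and 361.3 CPM in PFHxA a to d, at 317.9, 326.9, 315.8 and 314.6 CPM in PFBA a to d, and at 323.4, 329.8, 330.6 and 320.4 CPM in control a to d. The PFHxA libraries were above all 8 others. Of all tested genes, 9.49% had all PFHxA libraries above all controls and 9.24% had them above all PFBA libraries. The share with both was not counted. PGD averaged 354.8 ± 10.7 CPM with PFHxA and 326.0 ± 4.93 CPM in control (SD, n = 4 each), a 1.09-fold rise (log2 fold change 0.12, SE 0.0337, edgeR adjusted p = 0.0283). The call was lost without PFHxA b, PFHxA c, PFHxA d or control a (edgeR adjusted p = 0.0566 to 0.0803) and with the trend removed (0.11, edgeR adjusted p = 0.0924). The nearest patterns were NCS1, a calcium sensor (root mean square difference 0.0219), the tubulin TUBB (0.0238) and FXR2 (0.0253).

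**Figure D3:**
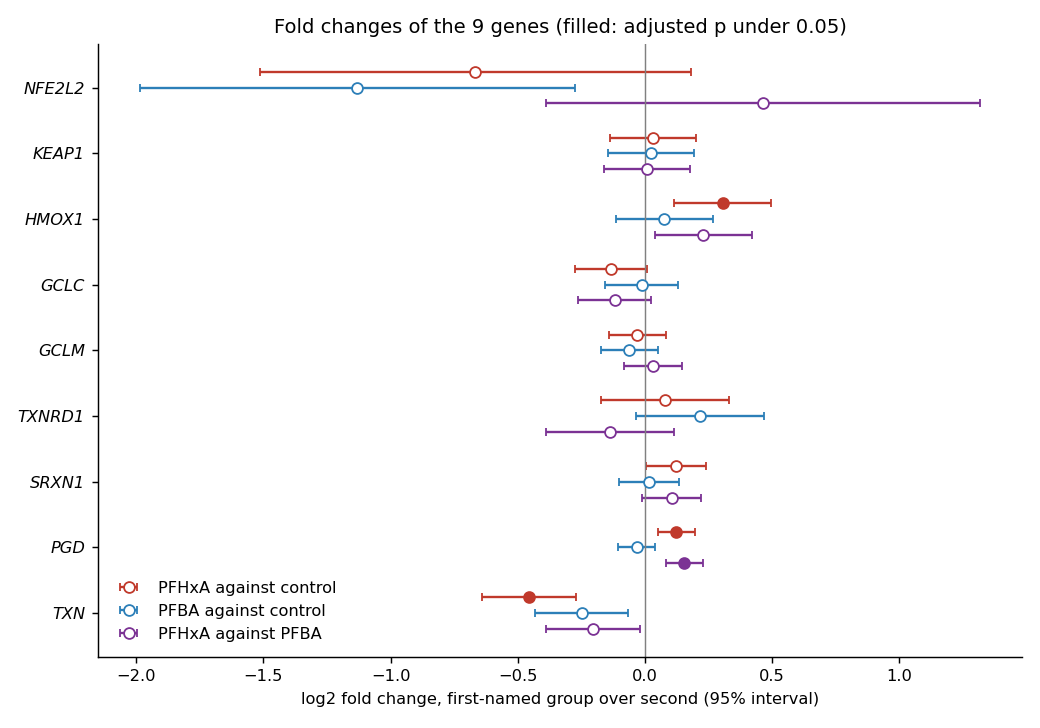
Log2 fold change (first-named group over second) with its 95% interval for each of the 9 genes in the 3 comparisons, filled where the adjusted p was under 0.05. TXN, HMOX1 and PGD are filled for PFHxA against control and PGD for PFHxA against PFBA, none are filled for PFBA against control, and NFE2L2 has the widest intervals.

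The glutathione pair gave no call with PFHxA. GCLC (chromosome 6, 53497341 to 53616970, minus strand) stood at 156.8, 158.4, 176.3 and 147.0 CPM in PFHxA a to d and at 188.8, 169.6, 171.0 and 170.7 CPM in control a to d. PFHxA c lay within the control range, and the log2 fold change was -0.13 (interval -0.28 to 0.01, edgeR adjusted p = 0.209). GCLM (chromosome 1, 93885205 to 93909456, minus strand) averaged 63.2 ± 4.43 CPM with PFHxA and 64.5 ± 2.26 CPM in control (SD, n = 4 each; log2 fold change -0.03, interval -0.14 to 0.08). With the trend removed GCLM, whose longest transcript has 37.3% GC, turned to 0.16 (edgeR adjusted p = 0.187).

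The thioredoxin-side enzymes also gave no call. SRXN1 (chromosome 20, 646615 to 653370, minus strand) stood at 54.1, 52.8, 48.7 and 48.6 CPM in PFHxA a to d and at 46.8, 49.3, 45.7 and 46.1 CPM in control a to d, so that PFHxA c and d lay below control b (log2 fold change 0.12, interval 0.00381 to 0.24, unadjusted p = 0.0439, edgeR adjusted p = 0.161). TXNRD1 (chromosome 12, 104215779 to 104350305, plus strand), the selenoenzyme that reduces thioredoxin with NADPH, averaged 93.3 ± 4.41 CPM with PFHxA and 88.4 ± 2.93 CPM in control (SD, n = 4 each; log2 fold change 0.08, interval -0.17 to 0.33). TXN, its substrate, fell with PFHxA, whereas the interval for TXNRD1 reached from a lower to a higher level. Within the TXNRD1 locus lies the pseudogene RPL18AP3, on the same strand, with 142775 counts beside 22196 for TXNRD1.

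**Figure D4:**
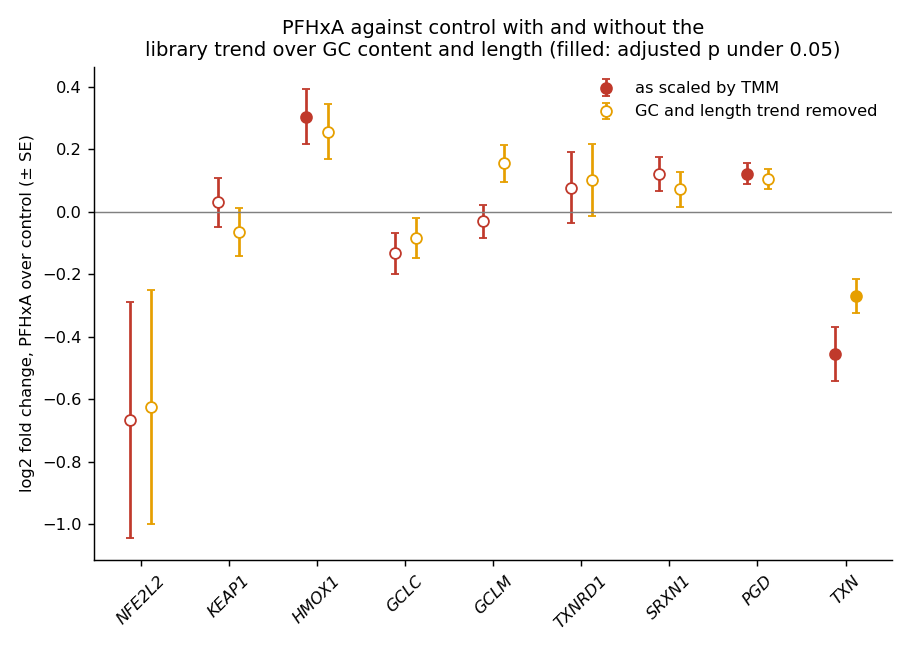
Log2 fold change of PFHxA over control with its SE for each gene, as scaled by TMM (red) and with the library trend over GC content and length removed (orange), filled where the adjusted p was under 0.05. TXN stays filled, at -0.455 and -0.27, HMOX1 and PGD keep their direction and lose the call, and KEAP1 and GCLM change sign.

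With PFBA against control, none of the 9 genes was called by edgeR, DESeq2 or limma-voom, and over all genes edgeR called 0.00604%. At an unadjusted p under 0.05 there were 2 of the 9, NFE2L2 and TXN, where 9.86% of all genes lay under it. TXN averaged 104.0 ± 13.3 CPM with PFBA and 123.7 ± 11.7 CPM in control (SD, n = 4 each; log2 fold change -0.25, SE 0.0851, interval -0.43 to -0.07, edgeR adjusted p = 0.39), and PFBA d, at 120.4 CPM, lay within the control range. Without control d this became -0.18.

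TXNRD1 stood at 94.5, 86.9, 92.8 and 135.9 CPM in PFBA a to d and at 89.9, 88.7, 84.1 and 90.7 CPM in control a to d. PFBA d was far above the rest, and the log2 fold change of 0.21 (interval -0.04 to 0.47, edgeR adjusted p = 0.576) became 0.05 without it. HMOX1 (log2 fold change 0.08, interval -0.12 to 0.27), GCLC (-0.01, interval -0.16 to 0.13), GCLM (-0.06, interval -0.17 to 0.05), SRXN1 (0.02, interval -0.10 to 0.13) and PGD (-0.03, interval -0.10 to 0.04) had intervals that included no change. HMOX1 was at 0.00864 without PFBA d, its highest PFBA library. GCLC stood at 195.0 CPM in PFBA a and at 164.3 to 167.4 CPM in the other PFBA libraries.

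The acids, given at the same dose and for the same time, were compared directly to ask whether the longer chain acted differently. PGD was the 1 gene of the 9 that differed, where 10.9% of all tested genes were called, 3.84% higher and 7.07% lower. It averaged 354.8 ± 10.7 CPM with PFHxA and 318.8 ± 5.59 CPM with PFBA (SD, n = 4 each; log2 fold change 0.15, SE 0.0337, edgeR adjusted p = 0.0115), with all PFHxA libraries above all PFBA libraries, a separation that 9.24% of genes showed in this direction. With the trend removed, where 0.882% of genes were called, PGD was at 0.10 (edgeR adjusted p = 0.161).

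For the other 8 genes no difference between the acids was called, which does not show that the acids acted alike. TXN was lower with PFHxA by a log2 fold change of -0.21 (interval -0.39 to -0.02, edgeR adjusted p = 0.141). This became -0.28 without PFBA b (edgeR adjusted p = 0.0343), -0.13 without PFBA d (edgeR adjusted p = 0.364) and -0.08 with the trend removed (edgeR adjusted p = 0.616). HMOX1 was at 0.23 (interval 0.04 to 0.42, edgeR adjusted p = 0.113) and SRXN1 at 0.10 (interval -0.01 to 0.22, edgeR adjusted p = 0.242). Removing the trend put HMOX1 at 0.15 and SRXN1 at 0.03. GCLC was at -0.12 (interval -0.26 to 0.02), and at -0.06 without PFBA a or with the trend removed. GCLM was at 0.03 (interval -0.08 to 0.14), and at 0.24 with the trend removed (interval 0.11 to 0.36, edgeR adjusted p = 0.0863). KEAP1 was at 0.01 (interval -0.16 to 0.18). TXNRD1 was at -0.14 (interval -0.39 to 0.12), at -0.21 without PFBA b and at 0.03 without PFBA d. The comparisons with control share the same 4 control libraries, so that agreement between them is not independent.

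Around the 9 genes, 7 lists of related genes were described by counts, with some genes on more than 1 list. With PFBA, 0 genes of any list were called. With PFHxA against control, where 6.08% of all genes were called higher and 8.82% lower, the 36 tested further NRF2 targets held 2 higher and 2 lower (median log2 fold change -0.05). Of these, the glutathione conjugate exporter ABCC1 rose 1.17-fold (edgeR adjusted p = 0.0107). NAMPT, of NAD salvage, fell by 0.32 on the log2 scale (edgeR adjusted p = 0.00206) and the glutathione transferase GSTM3 fell by 0.21 (edgeR adjusted p = 0.0354). Removing the trend put ABCC1 at 0.08, NAMPT at -0.11 and GSTM3 at -0.20 on the log2 scale, and none of these was called.

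Classical NRF2 targets on that list were not called with either acid. The quinone reductase NQO1 averaged 46.8 ± 2.10 CPM with PFHxA, 42.5 ± 2.22 CPM with PFBA and 49.1 ± 2.49 CPM in control (edgeR adjusted p = 0.476 and 0.304 for the acids over control; SD, n = 4 each). The cystine importer SLC7A11 averaged 147.4 ± 6.95 CPM with PFHxA, 159.9 ± 4.19 CPM with PFBA and 148.0 ± 6.33 CPM in control. Glutathione reductase, GSR, averaged 109.5 ± 7.46 CPM with PFHxA, 103.4 ± 3.12 CPM with PFBA and 99.0 ± 5.62 CPM in control (edgeR adjusted p = 0.0965 for PFHxA). The peroxiredoxin PRDX1 and the autophagy adaptor SQSTM1, which binds KEAP1, had log2 fold changes of -0.02 and 0.08 for PFHxA and of 0.05 and 0.03 for PFBA over control.

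Among 20 tested regulators and partners of NRF2, 4 rose and 1 fell with PFHxA (median log2 fold change 0.08), beside 6.08% of all genes higher and 8.82% lower. The acetyltransferases CREBBP (1.29-fold, edgeR adjusted p = 0.00152) and EP300 (1.23-fold, edgeR adjusted p = 0.00421), the remodeller SMARCA4 (1.17-fold) and the nuclear receptor RXRA (1.14-fold) rose. RBX1, the RING subunit of the KEAP1 ligase, fell by 0.27 on the log2 scale (edgeR adjusted p = 0.0247). After trend removal CREBBP kept its call (log2 fold change 0.19, edgeR adjusted p = 0.0203), and the other 4 lost theirs, EP300 at 0.15, SMARCA4 at 0.06, RXRA at 0.02 and RBX1 at -0.12. CUL3 had a log2 fold change of -0.13 for PFHxA over control (edgeR adjusted p = 0.0564) and fell by 0.15 with PFHxA relative to PFBA (edgeR adjusted p = 0.0474), but with the trend removed both values turned, to 0.00980 and 0.05, and neither was called. BACH1 averaged 74.9 ± 2.24 CPM with PFHxA, 84.2 ± 7.56 CPM with PFBA and 75.4 ± 1.51 CPM in control (SD, n = 4 each) and was not called. MAFK averaged 17.9 ± 0.988 CPM with PFHxA and 15.3 ± 1.72 CPM in control (edgeR adjusted p = 0.148).

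Of 25 thioredoxin, peroxiredoxin and glutaredoxin genes, 0 rose and 3 fell with PFHxA (median log2 fold change -0.02), a share near the 8.82% of all genes called lower. The mitochondrial peroxiredoxin PRDX3 averaged 214.0 ± 3.82 CPM with PFHxA and 264.8 ± 19.1 CPM in control (SD, n = 4 each; log2 fold change -0.31, edgeR adjusted p = 0.00206), and SESN3 (-0.22) and TXNDC12 (-0.20) were the others. After trend removal PRDX3 was at -0.18 (edgeR adjusted p = 0.0253), and SESN3 (-0.09) and TXNDC12 (-0.18) were not called. TXNIP, the inhibitor of thioredoxin, was under 1 CPM in every library and not called. Named for its size after the values were seen, TXNDC5 had the largest fold of this list, 1.96 on the log2 scale for PFHxA over control, but ran from 33.5 to 217.5 CPM between libraries, was not called (edgeR adjusted p = 0.06) and shares its locus with the read-through gene BLOC1S5-TXNDC5. Of 29 genes of glutathione metabolism 0 rose and 3 fell, LANCL1, ESD and GGCT, with log2 fold changes of -0.24, -0.37 and -0.18, and of -0.11, -0.08 and -0.02 with the trend removed.

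The next counts, for PFHxA against control, stand beside 6.08% of all tested genes called higher and 8.82% called lower. Of 18 genes of the pentose phosphate pathway and NADPH supply, 1 rose and 2 fell with PFHxA. Those that fell were the mitochondrial enzymes ME2 (-0.18 on the log2 scale) and MTHFD2 (-0.24). Of 9 superoxide, catalase and oxidase genes SOD1, the cytosolic superoxide dismutase, fell by 0.32 on the log2 scale (edgeR adjusted p = 0.0439). Of 17 genes of heme synthesis and breakdown, 0 were called. With the trend removed, where 2.62% of all genes were called, CREBBP and PRDX3 were the 2 genes of all 7 lists still called.

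PFHxA relative to PFBA gave calls in 6 of the lists, beside 3.84% of all genes higher and 7.07% lower, and with the trend removed 0 genes of any list were called. Glutathione metabolism held 2 higher genes, the lipid peroxidase GPX4 (1.13-fold) and GSTP1 (0.16 on the log2 scale), and 4 lower, LANCL1 (-0.21), ESD (-0.35), CHAC2 (-0.37) and CTH (-0.35). The thioredoxin list held 2 higher, PRDX2 (1.15-fold) and SESN2 (1.13-fold), and 2 lower, PRDX3 (-0.21) and SESN3 (-0.19). The pentose phosphate and NADPH list held 2 higher, TKT (1.13-fold) and PGLS (0.14 on the log2 scale), and 2 lower, ME2 (-0.19) and MTHFD2 (-0.21). Among further NRF2 targets, TKT was higher and NAMPT (-0.37) and AKR1C1 (-0.38) were lower. Among regulators, SMARCA4 (0.22) and CREBBP (0.18) were higher and CUL3 was lower, and CYBA was the 1 called gene of the oxidase list (1.13-fold).

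**Figure D5:**
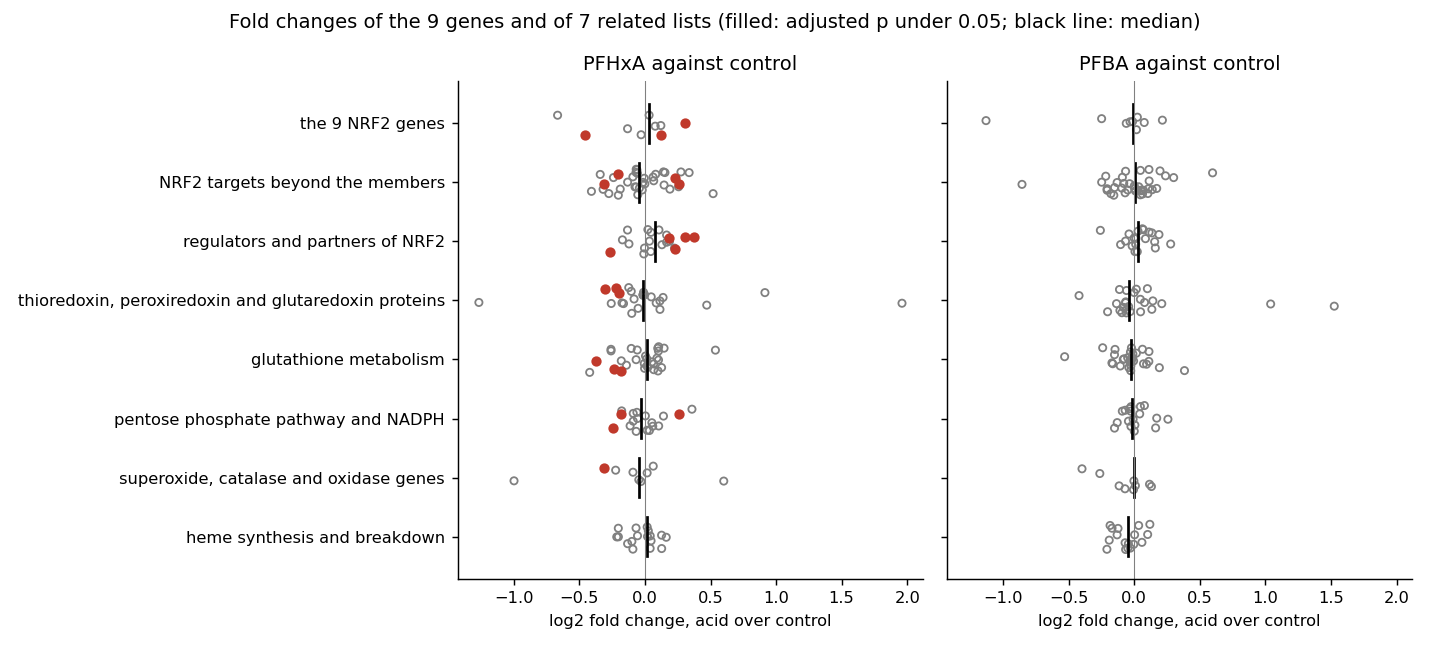
Log2 fold change of PFHxA (left) and PFBA (right) over control for the 9 NRF2 genes and for the tested genes of 7 related lists, filled red where the adjusted p was under 0.05, with the median of each list as a black line. Medians lie between -0.05 and 0.08 with PFHxA, and no gene is filled with PFBA.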

How the data were processed

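Reads had been aligned with HISAT2 2.0.4 to GRCh38 (hg38), per the submitters' processing notes. Raw counts of reads per gene were deposited by the authors; the counting program, annotation release and strand setting are not stated in these sources. Column prefixes BA, HA and Ck were read as PFBA, PFHxA and control. A further 12 columns, with length-normalized values, were not used. Between-gene levels had been planned on those columns and were computed from counts instead.

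Genes passing filterByExpr (minimum count 10, total 15) were scaled by TMM and fitted in edgeR 4.0.16 (R 4.3.3) by quasi-likelihood over all 12 libraries, with group as the only term (biological coefficient of variation 0.127). P-values are two-sided and Benjamini-Hochberg adjusted over 16554 genes, and a gene is called under 0.05. The SE was derived from the fold change and F, and intervals cover 95%. Log2 CPM adds a prior count of 2. The fit was tested on simulated data. GC content and length came from the longest GENCODE 29 transcript, and trends over both (splines, 5 degrees of freedom each) entered as offsets. Other settings tried were a stricter filter and none, RLE or upper-quartile scaling, thinning to the smallest total, limma-voom (limma 3.58.1), DESeq2 1.42.0, a fit of 8 libraries and leaving out each library.

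Members and lists were chosen with earlier results of these data known. Named beside the 9 genes are up to 5 called genes of smallest p per list and comparison, genes fixed by name, and the 3 nearest patterns of NFE2L2, HMOX1 and the called genes, unless said otherwise. The values of 1 gene on the lists are not reported here.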

Additional observations from a re-analysis of the deposited data

Results flagged for a closer look

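In 6 of the 27 sets of 4 libraries (9 genes in 3 groups) the highest or lowest library stood apart by Dixon's criterion. Chance meets this criterion in about 1 of 20 groups. The 27 sets come from the same 12 libraries and are not independent, so no excess over chance is read from the count. NFE2L2 in control a was at 39.9 CPM, under 104.0 to 113.3 CPM in the other controls. KEAP1 in PFHxA a was at 71.5 CPM, above 54.1 to 54.4 CPM in the other PFHxA libraries. HMOX1 in PFBA d was at 9.41 CPM, above 7.79 to 7.98 CPM in the other PFBA libraries, and TXNRD1 in the same library was at 135.9 CPM, above 86.9 to 94.5 CPM. GCLC was at 195.0 CPM in PFBA a, above 164.3 to 167.4 CPM in the other PFBA libraries, and at 188.8 CPM in control a, above 169.6 to 171.0 CPM in the other controls.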

How the results depend on the processing

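The 27 fold changes were recomputed under 22 alternatives, which gave 562 values of the same direction and call, 16 that lost a call, 1 that gained one and 15 of the opposite sign, all for genes not called. Removing the GC and length trend left 1 of 9 genes called for PFHxA against control (TXN) and 0 for PFHxA against PFBA. With no filter, 1 gene (TXN) was called for PFHxA against control. The trend removal also turned KEAP1 to -0.0642 and GCLM to 0.155 for PFHxA, KEAP1 to -0.0981 for PFHxA against PFBA and PGD to 0.00588 for PFBA, and limma-voom turned KEAP1 to -0.00368 for PFHxA against PFBA. The cause was not tested.

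Leaving out 1 library gave 1 to 3 genes called for PFHxA against control (1 without PFHxA b), 0 for PFBA against control and 1 to 2 for PFHxA against PFBA (2 without PFBA b). In these fits the values that changed sign ranged from -0.0780 to 0.0742 for KEAP1 with PFHxA and -0.102 to 0.0473 between the acids, -0.0178 to 0.0555 for GCLM and -0.207 to 0.0299 for TXNRD1 between the acids, and -0.0746 to 0.0243 for GCLC and -0.0219 to 0.0403 for SRXN1 with PFBA. HMOX1 kept its PFHxA call in 14 of 22 alternatives, PGD in 15 and TXN in 22. In the fit of the 8 libraries compared PGD lost its PFHxA call (adjusted p = 0.0616).

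The columns carry letters that are not tied to the label numbers, so a block by label number could not be fitted and nothing shows that letters mark pairs. A replicate block by column letter gave 2, 0 and 1 genes called in the 3 comparisons, and HMOX1 lost its PFHxA call there (adjusted p = 0.0572). Deviations of same-letter libraries correlated between -0.0896 and 0.0625.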
